A study of Drosophila melanogaster with 12 samples.

Results

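In ovaries of Drosophila melanogaster enriched for germline stem cells (GSCs), mRNAs recovered from polysomes were compared with mRNAs of the input lysate. The comparison rests on 4 libraries of 12 in the series, chosen by their labels: UAS-tkv input replicates 1 and 2 and UAS-tkv polysome replicates 1 and 2. The flies carried NosGAL4 driving UAS-tkv, so an extra supply of the type I BMP receptor Thickveins was made in the germline, and ovaries were dissected 1 to 3 days after eclosion from females fed yeast. The driver acts in the germline, but whole ovaries were used, and they hold somatic cells as well. The other genotypes, bam RNAi and aramis RNAi, were driven by NosGAL4 too and carried UAS-Dicer2, which UAS-tkv did not. Input RNA came from 20% of the lysate and was extracted with TRIzol, whereas polysome RNA came from gradient fractions and was extracted with acid phenol-chloroform, so fraction and extraction cannot be told apart. Both were poly(A) selected. The labels do not state whether the replicates were separate crosses, so p-values reflect the spread between these libraries, which may be technical.

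An mRNA loaded with several ribosomes sediments deep in a sucrose gradient, and the share of a message found there is read as a measure of its translation. In the GSC, BMP ligands from the niche act through Thickveins to keep the differentiation gene bam silent. The daughter cell then differentiates through Bam and through RNA-binding proteins such as Pumilio, Mei-P26 and Rbfox1, several of which repress translation. Translational control is therefore much of the known biology of this tissue.

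Total counts were 8713750 and 5383688 in the UAS-tkv inputs and 11545494 and 5086998 in the polysome libraries, and between 9169 and 10894 genes had a count in a library. Replicates correlated across genes (log2 CPM) at r = 0.936 for input and 0.873 for polysomes. CPM denotes counts scaled to library size with TMM factors. The level of tkv was 246 and 271 CPM in the UAS-tkv inputs, above the 105 to 202 CPM in the inputs of the other genotypes. Reads of the transgene and of the endogenous gene cannot be told apart in these counts. Among germline markers, aub (218 and 191 CPM) and bgcn (114 and 112 CPM) were well represented in input. Markedly lower in input 2 were ovo (282 and 164 CPM), otu (191 and 98.8 CPM) and nanos (228 and 112 CPM). AGO3 (179 and 140 CPM) and rhi (44.2 and 36.2 CPM) were also lower in input 2, whereas bam was not (8.21 and 8.23 CPM). Somatic markers were present as well, with tj of follicle and escort cells at 212 and 151 CPM. Summed levels of the muscle list were 8978 CPM in input 1 and 18995 in input 2. Those of the midgut peptidase list were 299 and 1762 CPM, so that markers of these tissues were higher in replicate 2. Follicle cell genes were mixed: tj and the summed eggshell list (10434 and 6413 CPM) were lower there. The other follicle and escort cell markers and the summed escort, cap and follicle cell list (1603 and 1954 CPM) were higher. Single eggshell markers went both ways. In bulk samples, fewer cells of a type and less RNA per cell cannot be told apart.

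Of 9745 genes tested, 192 were higher in polysomes (1.97%) and 598 were lower (6.14%), 790 in all (8.11%), at an adjusted p under 0.05 (edgeR quasi-likelihood test, Benjamini-Hochberg adjustment). The higher genes were mostly short messages and the lower genes mostly long ones. The median log2 ratio of polysome over input was 1.38 over the higher genes and -1.82 over the lower genes, against -0.01 over all genes tested. The calls depend on having both replicates: without input 1, input 2, polysome 1 or polysome 2 in turn, 0, 3, 170 and 9 genes were called higher and 138, 214, 488 and 201 lower. Of the 23 higher and 47 lower genes that the naming rule picks, 0 and 17 kept their calls whichever UAS-tkv library was left out. By the looser rule of an over 2-fold ratio with an unadjusted p under 0.05, 632 genes were higher (6.49%) and 1345 lower (13.8%). Of the lower genes, 20 had no count in either polysome library, and their fitted ratios are no bounds.

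**Figure D1:**
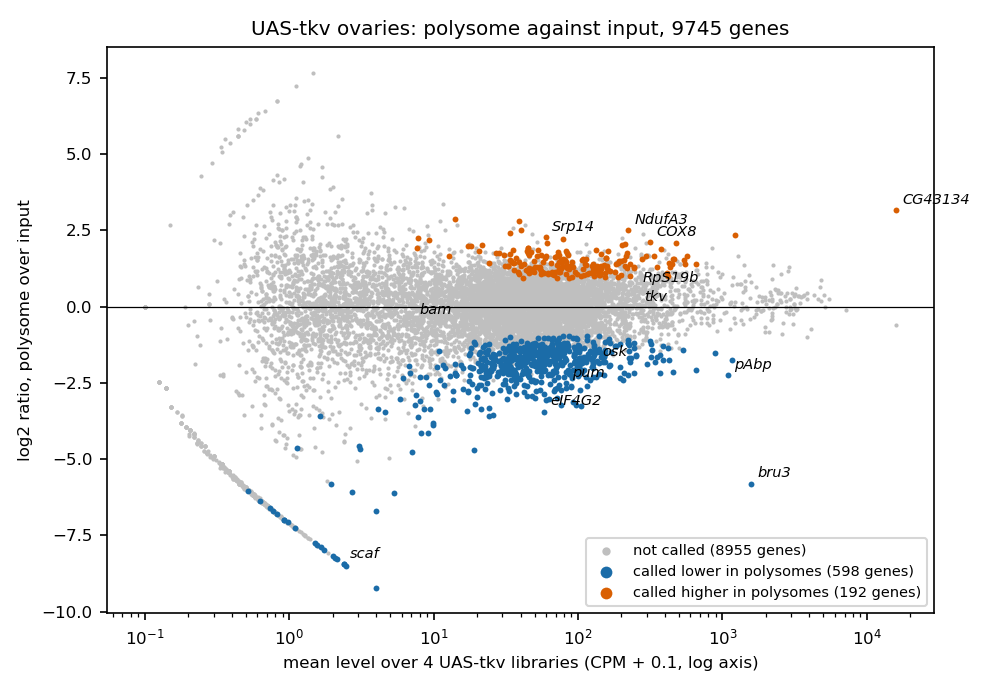
The log2 ratio of polysome over input (y axis) is plotted against the mean level over the 4 UAS-tkv libraries (x axis, CPM plus 0.1, log scale) for 9745 genes. The 192 genes called higher (orange) and 598 called lower (blue) lie on either side of 0, with CG43134 the most abundant higher gene, bru3 far below the rest at its level, and a curved edge at the lower left made by genes with no polysome count.

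Among called genes of at least 10 CPM, the largest increase was that of CG43134, an uncharacterized gene at chromosome X, 4247313 to 4247785 (dm6), whose coding sequence spans 82 codons. Its level was 2875 and 3469 CPM in input and 15387 and 41546 CPM in polysomes. Both polysome values were above both inputs, as the naming rule required, and the polysome libraries differed from each other more than the inputs did. The log2 ratio was 3.17 ± 0.78 (SE, n = 2 per fraction, adjusted p = 0.0321). Each SE is the absolute log2 ratio over the square root of the quasi-likelihood F statistic. That statistic comes from the fit to all 12 libraries, so the SE is not the spread of the UAS-tkv libraries alone. CG43134 by itself took 0.318% and 0.399% of input counts and 1.65% and 4.20% of polysome counts.

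Among characterized genes that were called at 10 CPM or more without overlap, NdufA3 had the highest ratio. It codes for a subunit of respiratory complex I. NdufA3 measured 71.7 and 61.3 CPM in input and 388 and 369 CPM in polysomes, a log2 ratio of 2.51 ± 0.65 (adjusted p = 0.0389). Every polysome value was above every input value, as the naming rule required. Srp14, a subunit of the signal recognition particle that brings nascent secretory proteins to the endoplasmic reticulum, measured 22.2 and 18.9 CPM in input and 87.7 and 111 CPM in polysomes (log2 ratio 2.27 ± 0.58, adjusted p = 0.0362). Taf10b, a subunit of the general transcription factor TFIID, measured 31.5 and 24.2 CPM in input and 101 and 157 CPM in polysomes (log2 ratio 2.21 ± 0.42, adjusted p = 0.0117). The other leading genes, CG11686, CG34250, CG31360, l(3)87Df and CG18628, had log2 ratios between 2.36 and 2.86. The 10 leading genes coded for 63 to 146 codons.

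In the opposite direction, bru3, a Bruno family RNA-binding protein gene at chromosome 3L, 13521907 to 13803400, fell the most among genes of at least 10 CPM. Its level was 2593 and 3651 CPM in input but 78.2 and 32.6 CPM in polysomes. This is a log2 ratio of -5.81 ± 1.27 (adjusted p = 0.0205), and no exon of bru3 is shared with another annotated gene. Without either polysome library, bru3 lost its call (adjusted p = 0.0539 and 0.116). Its share of input counts in the other genotypes ran from 0.0190% to 0.317%, against 0.286% and 0.420% in UAS-tkv.

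Pkc98E, a protein kinase C, measured 38.6 and 55.5 CPM in input and 4.44 and 3.50 CPM in polysomes (log2 ratio -3.55 ± 0.36, adjusted p = 0.00284). eIF4G2, a germline relative of the translation initiation scaffold eIF4G, measured 119 and 93.6 CPM in input and 9.27 and 10.3 CPM in polysomes (log2 ratio -3.44 ± 0.51, adjusted p = 0.00438). Both kept their calls without any single UAS-tkv library. Myc, the growth-promoting transcription factor, measured 59.2 and 30.0 CPM in input and 6.37 and 0.389 CPM in polysomes (log2 ratio -3.60 ± 0.77, adjusted p = 0.0194). Annotated exons of other genes cover 40.9% of the exon bases of Myc on the opposite strand, and the strand setting of the counts was not stated, so its counts are uncertain. CHES-1-like (a forkhead factor), ths (an FGF ligand) and mamo (a zinc finger factor of the maternal germline) had log2 ratios from -3.41 to -3.23. The noncoding RNA lncRNA:CR40469 had a ratio of -4.70 and the unnamed identifier FBgn0085364 one of -3.25.

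**Figure D2:**
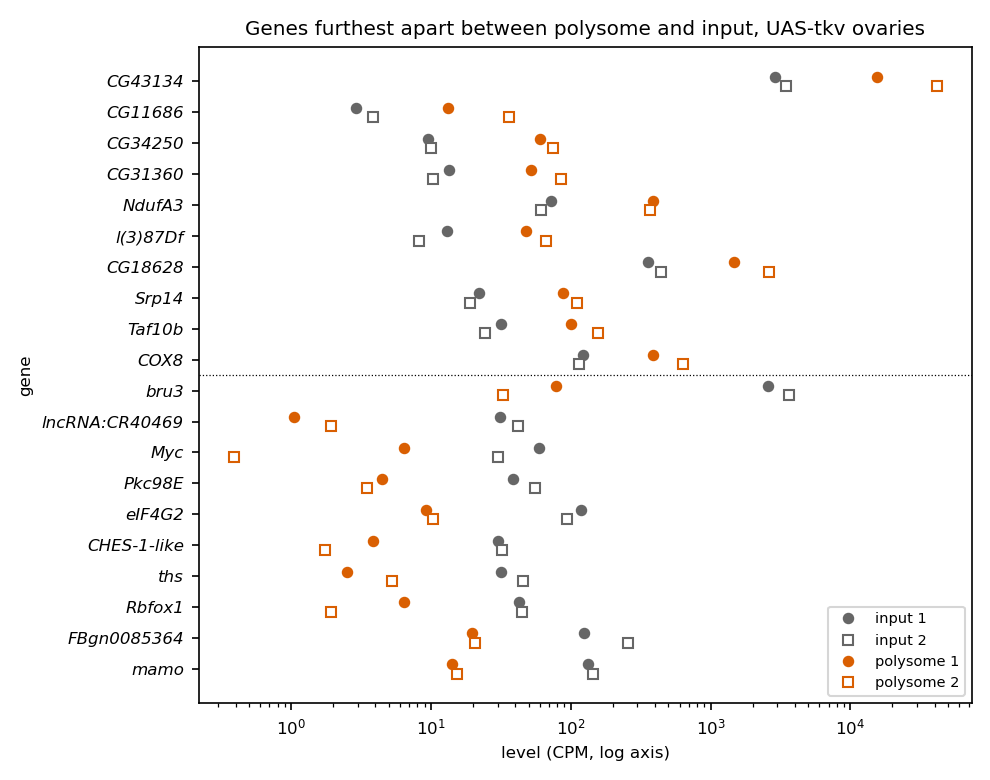
Levels in single libraries (x axis, CPM, log scale) for the 10 genes furthest up, above the dotted line, and the 10 furthest down, below it. Grey marks are inputs and orange marks are polysome libraries, filled for replicate 1 and open for replicate 2. All 20 genes were picked so that the orange and grey marks do not overlap. Of all genes tested, 26.5% lay higher and 31.1% lower in polysomes without overlap. NdufA3 moved from 71.7 and 61.3 CPM to 388 and 369 CPM. The level of bru3 went from 2593 and 3651 CPM to 78.2 and 32.6 CPM.

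Genes at the 2 ends differed in length. Across genes, the log2 ratio had a Spearman rho of -0.61 with mRNA length and of -0.41 to -0.50 with coding length, 5′ UTR length, 3′ UTR length and number of exons (a description, since genes are not independent replicates). Over 9167 protein-coding genes divided into quintiles by mRNA length, the median log2 ratio went down at each step: 0.75 for the shortest quintile (198 to 1107 bases), then 0.40, 0.08 and -0.34, and -1.02 for the longest quintile (3627 to 71382 bases). Of the 1837 genes in the shortest quintile, 141 were called higher and 1 lower, whereas of the 1833 genes in the longest, none was called higher and 414 were called lower. Genes called higher had a median mRNA of 813 bases, genes called lower one of 4870 bases, and genes not called one of 1887.5 bases. Proteins under 150 codons made up 47.6% of the higher genes, 0.35% of the lower genes and 7.68% of those not called. Of 264 genes with fewer than 100 codons, 38 were called higher and 0 lower, and of 1319 genes with 1000 codons or more, 0 were called higher and 277 lower. When the trend of each library on mRNA length was removed, an alternative chosen after seeing the data, 38 genes were called higher and 99 lower. Of the 70 called named genes, 69 could be fitted in this way and 14 kept their calls. Some ratios that lost their calls stayed about as large, such as those of bru3 (-5.52, adjusted p = 0.0754, edgeR) and mre11 (1.34, adjusted p = 0.104).

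Coding sequence and untranslated regions each followed the same order. In the shortest and longest quintiles, the median ratio was 0.65 and -0.81 by coding length, 0.46 and -0.81 by 5′ UTR length, and 0.49 and -0.95 by 3′ UTR length. The order by 3′ UTR was also seen within classes of coding length. Among genes with coding sequences up to 1002 bases, the median went from 0.74 with a 3′ UTR of at most 143 bases to 0.00 with one of 427 bases or more. Among genes with coding sequences of 1842 bases or more, it went from -0.18 to -1.01 over the same UTR classes. In the last class, 330 of 1466 genes were called lower.

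The length order was present in every pairing of a polysome library with an input library, and its slope differed between replicates. With 0.5 CPM added, the shortest quintile had medians of 0.47 and 0.43 for polysome 1 over inputs 1 and 2, and of 0.95 and 0.86 for polysome 2. The longest quintile had medians of -0.87 and -0.84 for polysome 1 and of -1.24 and -1.16 for polysome 2. The ratio of polysome 1 over polysome 2 itself followed mRNA length (Spearman rho = 0.30 across genes), and that of input 1 over input 2 less so (0.10). Polysome 1 held 11545494 counts and polysome 2 held 5086998, and the part of depth in this was not tested.

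**Figure D3:**
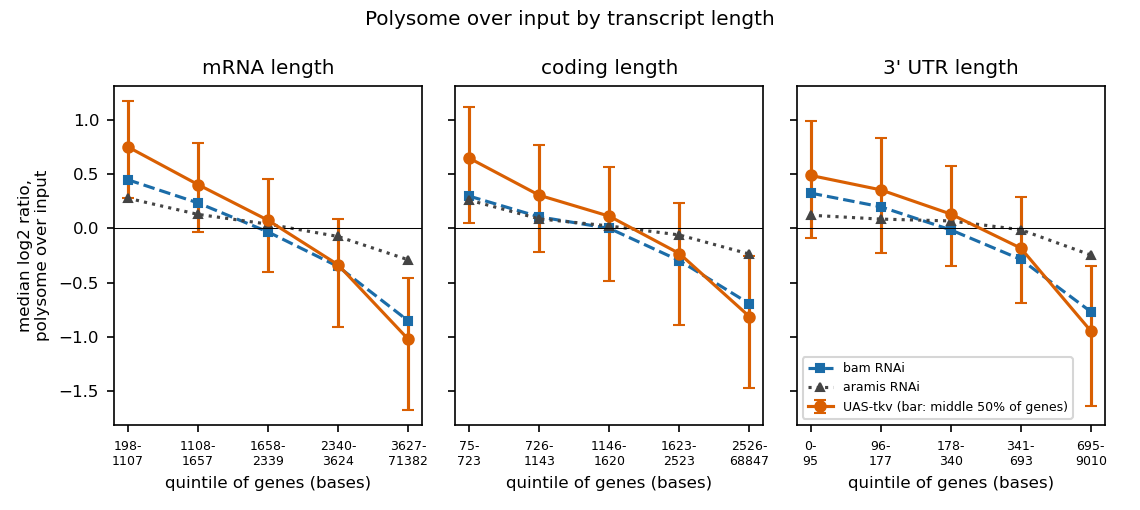
Median log2 ratio of polysome over input (y axis) in quintiles of protein-coding genes by mRNA, coding and 3′ UTR length (x axis, bases), for UAS-tkv (orange, bars are the interquartile range over genes), bam RNAi (blue) and aramis RNAi (grey). By mRNA length the UAS-tkv medians run from 0.75 to -1.02, those of bam RNAi from 0.45 to -0.85 and those of aramis RNAi from 0.28 to -0.29.

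Nuclear genes for mitochondrial ribosomal proteins and for oxidative phosphorylation lay mostly on the high side. Of 70 mitochondrial ribosomal protein genes tested, 6 were called higher (against 1.97% of all genes) and 0 lower. All 70 had a log2 ratio above 0, with a median of 1.03 against -0.01 over all genes. Their summed level was 3782 and 3384 CPM in input and 6719 and 7688 CPM in polysomes. mRpS18C, a small subunit protein, measured 25.5 and 26.3 CPM in input and 77.7 and 90.5 CPM in polysomes (log2 ratio 1.70 ± 0.30, adjusted p = 0.00929). mRpS16 (1.78) and mRpL20 (1.65) were also called.

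Nuclear genes of oxidative phosphorylation, whose products join the respiratory chain, had 8 of 70 called higher (against 1.97% of all genes). None was called lower. Of the 70, 64 had a log2 ratio above 0, and the median was 1.11. COX8, a cytochrome c oxidase subunit, measured 123 and 114 CPM in input and 388 and 637 CPM in polysomes (log2 ratio 2.11 ± 0.49, adjusted p = 0.0270). COX7C, of the same complex, had a log2 ratio of 2.08 and UQCR-11, of complex III, one of 2.02. The called gene NdufA3 is not a member of this list. The 13 mRNAs and 2 rRNAs encoded by the mitochondrial genome are listed at 0 in all libraries and were not tested. Both nuclear lists are of short messages, with median mRNAs of 778.5 and 813 bases. Against the medians of their own length quintiles, 59 of 70 mitochondrial ribosomal protein genes and 60 of 70 oxidative phosphorylation genes lay higher. With the length trend removed, none of either list was called and their medians were 0.49 and 0.60.

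Cytosolic ribosomal protein genes, which make up the translation machinery itself and are of similar length, were not called. Of 82, 0 passed in either direction by edgeR and 1 was higher by DESeq2 (2 had an unadjusted p under 0.05, against 2687 of all genes tested, or 27.6%), and the median log2 ratio was 0.25, or -0.31 with the length trend removed. Their share of all counts was 20.7% and 19.7% in input and 21.6% and 21.8% in polysomes. Of the 82, 16 lay above the median of their own length quintile. RpS15Ab had the lowest p (61.9 and 57.3 CPM in input, 99.2 and 195 CPM in polysomes, log2 ratio 1.30 ± 0.40, adjusted p = 0.0642). Its close copy RpS15Aa makes that count uncertain. RpS19b, the paralog enriched in early germline, measured 218 and 180 CPM in input and 251 and 356 CPM in polysomes, and its log2 ratio of 0.61 ± 0.29 did not pass (adjusted p = 0.204).

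Other parts of the protein economy were mixed. Over all genes, 1.97% were called higher and 6.14% lower. Of 33 proteasome genes, 2 were called higher and 0 lower (median 0.58): Prosbeta3, at 246 and 216 CPM in input and 619 and 734 CPM in polysomes, and Prosbeta1, with a log2 ratio of 1.31. Of 39 ribosome biogenesis genes, Nop10 (1.87) and NHP2 (1.65), both of the H/ACA particle that makes pseudouridine, were called higher and the exosome nuclease gene Rrp6 (-1.44) was called lower. The exons of Nop10 share 31.6% of their bases with a gene on the opposite strand. Of 38 translation initiation genes, eIF4G2 and eIF4H1 were called lower. eIF4H1 measured 238 and 219 CPM in input and 46.3 and 52.5 CPM in polysomes (log2 ratio -2.21 ± 0.32, adjusted p = 0.00438). Of 31 aminoacyl-tRNA synthetase genes, 0 were called by edgeR or DESeq2 (3 had an unadjusted p under 0.05). Their median mRNA was 2477 bases and their median ratio 0.15. Of 30 chaperone genes, 3 were called lower: the endoplasmic reticulum chaperone gene Hsc70-3 (-1.42), the co-chaperone gene stv (-1.21) and Hsp110 (-1.14).

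Among the gene lists, those of translational repressors and of germline regulators had the most members called lower. Of 21 translational repressor and RNP granule genes, 13 were called lower (against 6.14% of all genes) and 0 higher, with a median log2 ratio of -1.91. Of 21 genes of germline self-renewal and differentiation, 9 were called lower and 0 higher, with a median of -1.35. The lists share members. They are also lists of long messages, with median mRNAs of 4062 and 4147 bases, and 4 and 6 of their members lay above the median of their own length quintile. With the length trend removed, 3 and 1 were called lower and the medians were -0.76 and -0.56.

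Rbfox1, which promotes the passage of the cyst into meiosis, had the lowest ratio of the germline list. It measured 42.8 and 44.7 CPM in input and 6.37 and 1.94 CPM in polysomes (log2 ratio -3.32 ± 0.49, adjusted p = 0.00438). pum, whose product acts with Nanos to repress differentiation mRNAs in the GSC, measured 160 and 119 CPM in input and 25.2 and 24.1 CPM in polysomes (log2 ratio -2.50 ± 0.37, adjusted p = 0.00438). Polysome values of both genes were far below their inputs. With any 1 UAS-tkv library left out, the ratio stayed between -4.52 and -2.79 for Rbfox1 and between -2.72 and -2.32 for pum. With the length trend removed, Rbfox1 kept its call (-2.06) and pum did not (-0.83). mei-P26, a TRIM-NHL protein gene needed for cyst differentiation, measured 98.3 and 65.9 CPM in input and 16.5 and 14.2 CPM in polysomes (log2 ratio -2.41 ± 0.48, adjusted p = 0.0137). Sxl, an RNA-binding protein gene that GSCs need in order to differentiate, had a log2 ratio of -2.24 (adjusted p = 0.0105).

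Among the repressors and general mRNA-binding proteins, pAbp codes for the cytoplasmic poly(A)-binding protein. It was one of the most abundant messages to fall, at 1876 and 1713 CPM in input and 474 and 282 CPM in polysomes (log2 ratio -2.25 ± 0.42, adjusted p = 0.0116). larp, whose product binds mRNAs with terminal oligopyrimidine tracts, measured 233 and 192 CPM in input and 43.1 and 42.7 CPM in polysomes (log2 ratio -2.31 ± 0.34, adjusted p = 0.00438). stau, which localizes oocyte mRNAs, and orb, a CPEB family activator of polyadenylation, had log2 ratios of -2.24 and -2.14. They were the 2 called of 16 localized oocyte and pole plasm genes (median -0.68), against 6.14% of all genes called lower.

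Several central GSC genes were not called. tkv itself had close levels in both fractions, at 246 and 271 CPM in input and 258 and 256 CPM in polysomes (log2 ratio -0.01 ± 0.31, adjusted p = 0.994). bam was low everywhere, at 8.21 and 8.23 CPM in input and 7.42 and 4.47 CPM in polysomes (log2 ratio -0.46 ± 0.98, adjusted p = 0.824). nanos, a translational repressor that maintains GSCs, measured 228 and 112 CPM in input and 132 and 73.8 CPM in polysomes, so that the fractions overlapped (log2 ratio -0.72 ± 0.47, adjusted p = 0.348). osk, the pole plasm organizer, measured 269 and 149 CPM in input and 82.8 and 34.4 CPM in polysomes, and with a log2 ratio of -1.83 ± 0.64 did not pass (adjusted p = 0.0948). Exons of a noncoding RNA on the same strand cover 78.5% of its exon bases. ais, the helicase gene that the aramis RNAi line targets, had a ratio of -0.12 ± 0.40, and msl-2, a long message of dosage compensation with no count in polysome 2, one of -1.89 ± 1.09.

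BMP pathway genes, which carry the signal that UAS-tkv raises, had 4 of 20 called lower (against 6.14% of all genes), 0 higher and a median of -1.08, or -0.69 without polysome 2. With the length trend removed, 0 were called by edgeR and the median was -0.39. shn, a zinc finger partner of the Smads, measured 46.7 and 35.8 CPM in input and 11.8 and 8.74 CPM in polysomes (log2 ratio -2.0 ± 0.40, adjusted p = 0.0144). dally, a proteoglycan that holds the ligand, had a log2 ratio of -1.90 and babo, an activin type I receptor gene, one of -1.61. Dad, the inhibitory Smad and a reporter of BMP signalling in GSCs, measured 24.2 and 28.3 CPM in input and 13.3 and 10.7 CPM in polysomes, which did not pass (log2 ratio -1.12, adjusted p = 0.0961). The insulin and TOR list had 4 of 18 called lower (median -0.92), and 2 with the length trend removed (median -0.03). REPTOR, a transcription factor held back by TORC1, measured 70.4 and 56.2 CPM in input and 11.5 and 10.9 CPM in polysomes (log2 ratio -2.50 ± 0.34, adjusted p = 0.00395). The PI3-kinase adaptor gene Pi3K21B (-1.60) was lower as well.

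Meiotic genes did not move as a block. Over all genes, 1.97% were called higher and 6.14% lower. Of 11 synaptonemal complex and cohesion genes, 3 were called lower. c(3)G, the transverse filament of the synaptonemal complex, measured 144 and 137 CPM in input and 42.7 and 48.4 CPM in polysomes (log2 ratio -1.63 ± 0.26, adjusted p = 0.00588). The cohesin loader Nipped-B had a log2 ratio of -2.62 and the cohesin subunit SMC3 one of -1.25. With the length trend removed, 1 of these 11 genes was called lower, and Nipped-B (-1.21) and SMC3 (-0.47) lost their calls. The list median was then -0.36, against -0.54 before. DESeq2 called 1 of the list higher and 4 lower. The cohesion gene ord measured 77.9 and 74.7 CPM in input and 75.3 and 96.6 CPM in polysomes, and its fractions overlapped (log2 ratio 0.17 ± 0.40, adjusted p = 0.842). Of 31 double-strand break repair genes, the nuclease gene mre11 was the 1 called. It measured 76.8 and 79.6 CPM in input and 179 and 203 CPM in polysomes (log2 ratio 1.29 ± 0.34, adjusted p = 0.0402, or 0.0517 with DESeq2 size factors). Of 30 piRNA pathway genes, which silence transposons, qin was the 1 called lower by edgeR (-1.84), against 2 by DESeq2. Of 23 meiotic recombination and division genes, mei-P26 was the 1 called by edgeR, against 1 higher and 2 lower by DESeq2.

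In the cell cycle list, 2 of 42 genes were called higher and 5 lower (against 1.97% and 6.14% of all genes). Bub3 of the spindle checkpoint rose (131 and 123 CPM in input, 265 and 234 CPM in polysomes, log2 ratio 0.97 ± 0.24, adjusted p = 0.0329), whereas its partner Bub1, with a longer mRNA (4091 against 1362 bases), fell (52.0 and 44.4 CPM in input, 14.2 and 22 CPM in polysomes, log2 ratio -1.42 ± 0.35, adjusted p = 0.0310). E2f1 (-1.78) and CycG (-1.60) were also lower. Cks85A (1.34) was the 1 higher gene with an mRNA of 2340 bases or more, and exons of genes on the opposite strand cover 74.9% of its own. Of 6 histone variant genes, His3.3A was called higher (1.10), and of 27 nucleoporin genes Nup153 was called lower (-2.32).

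**Figure D4:**
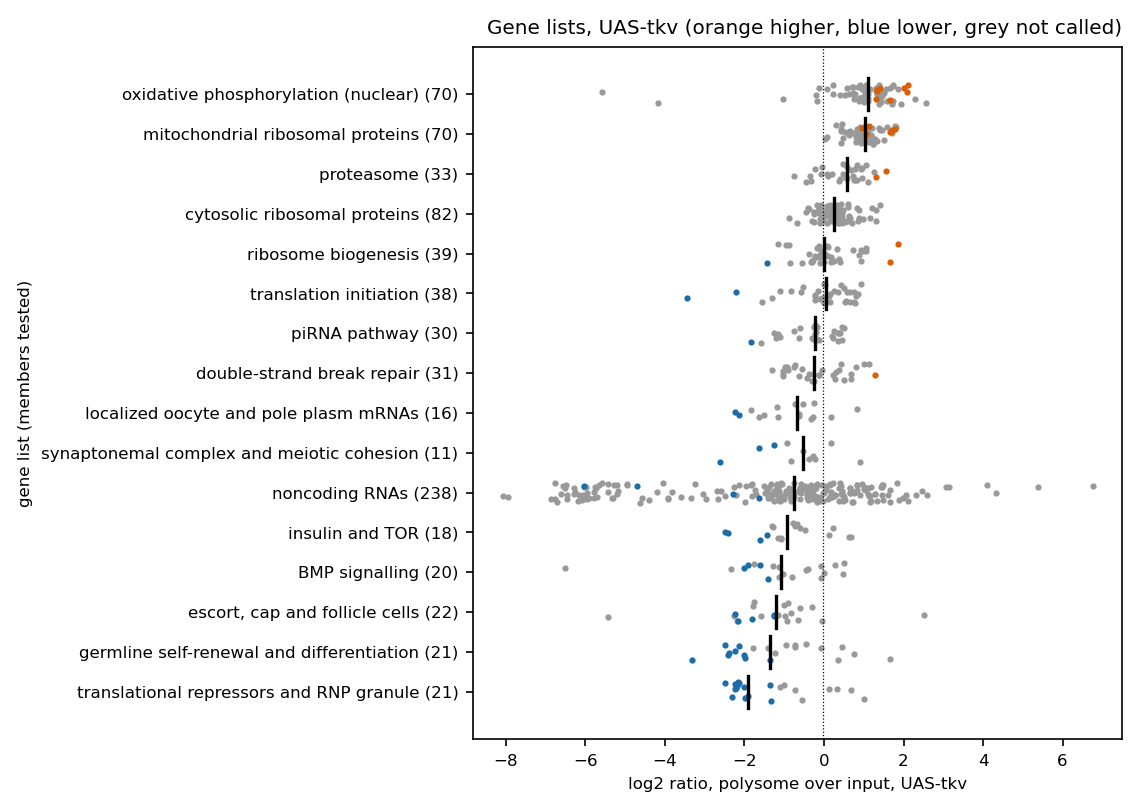
Log2 ratio of polysome over input (x axis) of each tested member of 16 gene lists (y axis, number tested in brackets), with orange for members called higher, blue for lower, grey for not called, a black bar at the list median and a dotted line at the median of all genes. Medians run from 1.11 for oxidative phosphorylation to -1.91 for translational repressors and RNP granule genes, and cytosolic ribosomal proteins sit close together around 0.25.

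Noncoding RNAs and snoRNAs had ratios mostly below 0. Of 238 noncoding RNAs, 4 were called lower, a share under the 6.14% of all genes, and 0 higher. Their median log2 ratio was -0.76. It was -0.63 with the 50 that had no polysome count set to bounds and 7 at or under the floor left out. The floor was 3 counts over the group. Leaving out 1 library moved the median of -0.76 to between -1.29 (without polysome 2) and -0.34 (without input 2). With no filter on low counts it was -0.18. Other classes had medians nearer 0, at -0.38 for 78 snoRNAs and 0.04 for 12 snRNAs. All 2062 noncoding RNA genes with an identifier, tested or not, took 0.213% and 0.241% of input counts and 0.137% and 0.112% of polysome counts. lncRNA:CR31781 measured 31.8 and 59.7 CPM in input and 10 and 8.74 CPM in polysomes (log2 ratio -2.28 ± 0.38, adjusted p = 0.00801). The 6 snoRNA host genes tested all lay below 0 without overlap between fractions, as did 31.1% of all genes (median -1.14). None passed by edgeR (1 had an unadjusted p under 0.05), and 1 was lower by DESeq2. Uhg1 had the lowest p among them, with 41.7 and 31.2 CPM in input and 13.3 and 18.1 CPM in polysomes (log2 ratio -1.22 ± 0.36, adjusted p = 0.0571), and it passed with the length trend removed (adjusted p = 0.0314). The called lncRNA:CR44472 had 10 and 4 counts in input and 0 in both polysome libraries, at least 5.18-fold lower against a floor of 3 counts over the group. All 6 host genes lay below the median of their mRNA length quintile.

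Some somatic genes were lower in polysomes. Of 22 escort, cap and follicle cell genes, 5 were called lower (against 6.14% of all genes) and 0 higher (median -1.20). With the length trend removed, 0 were called by edgeR and the median was -0.58. Their summed level was 1603 and 1954 CPM in input and 873 and 932 CPM in polysomes. fax, of the escort cell markers, measured 320 and 472 CPM in input and 68.3 and 108 CPM in polysomes (log2 ratio -2.17 ± 0.39, adjusted p = 0.0105). The transcription factor genes ct (-2.23) and zfh1 (-1.81) were lower too. The giant muscle proteins sls (-2.42) and bt (-2.40) were the 2 called of 21 muscle genes, and Col4a1 (-2.07), for collagen IV, the 1 of 14 hemocyte genes. These shares are near the 6.14% of all genes, DESeq2 called 4 and 3 lower, and none of the 3 genes kept its call with the length trend removed (0.14, -0.14 and -0.77). The eggshell list had 1 of 24 called lower, the protease gene ndl (-2.01), while its summed level was 10434 and 6413 CPM in input and 21912 and 12726 CPM in polysomes.

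The same comparison in the other genotypes gave ratios mostly of the same sign. Of the 192 genes higher in UAS-tkv, 191 had a ratio of the same sign in bam RNAi and 186 in aramis RNAi, with medians of 0.98 and 0.61. Of the 598 lower genes, 592 and 567 had the same sign, with medians of -1.26 and -0.58. The genes were chosen on the UAS-tkv ratio, and a single spread was estimated over all genotypes. In bam RNAi itself, 0 genes were called higher and 47 lower (0.482%) by edgeR, against 569 and 516 by DESeq2, and in aramis RNAi 0 and 1 (0.0103%), against 2 and 48, with 2025 (20.8%) and 561 (5.76%) at an unadjusted p under 0.05. Tested directly, the UAS-tkv ratio differed from that of bam RNAi in 1 gene and from that of aramis RNAi in 1 gene (0.0103% each), and 216 (2.22%) and 732 (7.51%) genes had an unadjusted p under 0.05. By edgeR that gene was scaf in both, with low counts in UAS-tkv, and DESeq2 called 3 and 19 genes.

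The ratios of some named genes are given in the 3 genotypes as values. For Pkc98E the log2 ratio was -3.55 ± 0.36 with UAS-tkv, -1.73 ± 0.33 with bam RNAi and -0.93 ± 0.32 with aramis RNAi, and neither difference passed (adjusted p = 1.00 and 0.304). For c(3)G the ratios were -1.63 ± 0.26, -0.68 ± 0.25 and 0.18 ± 0.26 (adjusted p of the differences 1.00 and 0.324). For pAbp they were -2.25 ± 0.42, -2.32 ± 0.42 and -1.58 ± 0.41. For NdufA3 they were 2.51 ± 0.65, 3.00 ± 0.66 and 1.08 ± 0.62. The medians of mitochondrial ribosomal protein genes were 1.03, 0.92 and 0.26 in the same order, whereas those of cytosolic ribosomal protein genes were 0.25, 0.43 and -1.64. The bam RNAi replicates went in opposite directions for the last group, whose share of counts was 14.8% and 23.1% in input and 33.9% and 9.51% in polysomes. UAS-Dicer2 was present in both RNAi lines, so genotype and that transgene cannot be told apart in these comparisons.

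**Figure D5:**
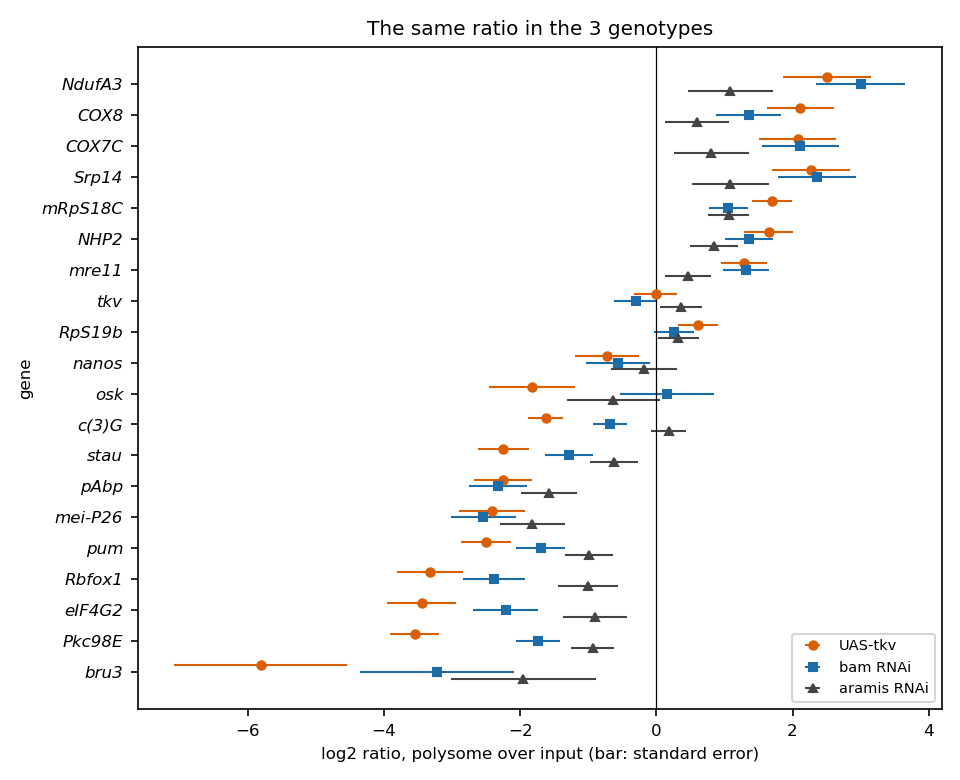
Log2 ratio of polysome over input (x axis) with its standard error for 20 genes named in the text (y axis) for UAS-tkv (orange), bam RNAi (blue) and aramis RNAi (grey). Pkc98E is at -3.55 (orange), -1.73 (blue) and -0.93 (grey), differences that did not pass the test, while tkv is at -0.01 in UAS-tkv.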

How the data were processed

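Poly(A)-selected libraries of UAS-tkv input and polysome RNA (2 replicates each) were analysed with the 8 libraries of bam RNAi and aramis RNAi. Per the labels, the authors aligned reads to dm6 with HISAT2 2.1.0 and counted them with featureCounts 1.4.6, and the deposited values are raw counts for 17023 gene identifiers. The annotation release, strand setting and treatment of reads matching several genes are not given in the sources used here, so paralogs and overlapping genes are uncertain. Names, positions and lengths came from the Ensembl annotation of BDGP6, which matched 16647 identifiers and not 376. The gene vas was not matched and is not analysed here. Lengths are those of the transcript that Ensembl marks as canonical.

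In R 4.3.3, edgeR 4.0.16 fitted 6 group means over 12 libraries (TMM, filterByExpr, quasi-likelihood test), which kept 9745 genes and removed 7278, with 6 residual degrees of freedom, a common dispersion of 0.178 and a median SE of 0.43 on the log2 scale. All p-values were adjusted over all genes by the Benjamini-Hochberg method, called at 0.05. The fitting was tested on simulated data. Same-numbered input and polysome libraries deviated together in UAS-tkv (r = 0.54) and aramis RNAi (0.392) but not in bam RNAi (-0.00288). A positive correlation in every genotype was required, so the numbers were not taken to pair the samples. Total counts ran from 3131667 to 15039925, and floors cover counting error only.

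Named genes were fixed genes of the tissue, the 10 furthest in each direction among called genes of at least 10 CPM without overlap, up to 3 called members a direction per list (otherwise the member of lowest p) and genes with called differences between genotypes. A few others (aub, bgcn, ovo, otu, AGO3, rhi, tj, Dad) were named as markers. The result of 1 gene that the rule picks is not reported here. Members and lists were chosen with earlier results of these data known. Alternatives were other scalings, filters, DESeq2 1.42.0, a replicate block, libraries left out, TPM ratios and, chosen after seeing the data, removal of each library's trend with mRNA length.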

Additional observations from a re-analysis of the deposited data

Results flagged for a closer look

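The polysome to input ratio of scaf, at chromosome 2R, 5676750 to 5691723, differed between genotypes by a test of the difference. Its counts in UAS-tkv were 40 and 31 in input and 0 and 0 in polysomes. In bam RNAi they were 333 and 224 in input and 83 and 390 in polysomes, and in aramis RNAi 373 and 242 in input and 601 and 105 in polysomes. With a floor of 3 counts over the group, scaf was at least 26.3-fold lower in UAS-tkv polysomes than in input. The fitted log2 difference of ratios was -8.48 against bam RNAi (adjusted p = 0.0218, edgeR quasi-likelihood test) and -8.37 against aramis RNAi (adjusted p = 0.0255), values that depend on the prior count since both UAS-tkv polysome libraries are at 0. Without any 1 of the UAS-tkv libraries the adjusted p rose to between 0.0569 and 0.491 against bam RNAi and to between 0.0573 and 0.268 against aramis RNAi. It was 0.138 and 0.161 without bam RNAi input 1 or 2 and 0.0718 to 0.252 without any 1 aramis RNAi library. With the replicate block it was 0.178 and 0.108, and with total counts and no TMM factors 0.111 and 0.0892, so the call was lost under these settings. Without bam RNAi polysome 1 or 2 it was kept (0.0478 and 0.0361). DESeq2 called both differences (adjusted p = 0.00535 and 0.00472).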

How the results depend on the processing

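The direction of the UAS-tkv comparison held in all 70 called named genes under DESeq2, which kept 70 of 70 calls, and the number of calls moved with the settings. Higher and lower genes numbered 192 and 598. They numbered 544 and 1071 with DESeq2, 579 and 1075 with no filter on low counts, 303 and 680 among genes of at least 10 CPM, 76 and 259 with total counts and no TMM factors (all genes then had a median log2 ratio of -0.13), 183 and 304 with the UAS-tkv libraries alone, and 632 and 1345 by the 2-fold rule with unadjusted p. With 1 library left out they ranged from 0 to 170 and from 138 to 488. The fraction left with 1 library is then assumed to vary like the other groups. With a replicate block, 157 and 644 genes were called, and 64 of 70 named calls remained.

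With the trend of each library on mRNA length removed, an alternative chosen after seeing the data, 38 genes were higher and 99 lower, of which 7 and 97 were also called with the trend left in, and 14 of the 69 named calls that could be fitted remained. Among them were Pkc98E (-2.44), Rbfox1 (-2.06), pAbp (-1.51) and c(3)G (-1.26). The median of all genes was then 0.09, that of oxidative phosphorylation genes 0.60, of mitochondrial ribosomal proteins 0.49, of cytosolic ribosomal proteins -0.31, of translational repressors -0.76 and of noncoding RNAs -1.07. Ratios not called that changed sign were those of tkv (0.024 with DESeq2 size factors and with DESeq2, 0.00057 with the UAS-tkv libraries alone, -0.14 to 0.045 with 1 library left out, 0.45 with the length trend removed), ais (-0.66 to 0.24 with 1 left out), ord (-0.030 to 0.30 with 1 left out), and, with the length trend removed, RpS19b (-0.10), yl (0.46) and Actn (0.17). The muscle gene sls, called lower, also changed sign there (0.14).

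As a log2 ratio of TPM plus 1, the shortest quintile of mRNAs had a median of 0.19 and the longest one of -1.18. With 1 library left out, the shortest had 0.45 to 0.90 and the longest -1.33 to -0.94. Of the gene lists, 9 to 15 had a median above 0 with 1 library left out, against 13. For the difference against bam RNAi, 0 genes were higher and 1 lower. The counts were 6 and 12 with no filter, 0 and 3 with DESeq2, 0 lower with total counts and with the replicate block, 54 and 146 by the 2-fold rule with unadjusted p, and 0 to 2 and 0 to 1 with 1 library left out. Against aramis RNAi, with 0 higher and 1 lower, they were 4 and 35 with no filter, 0 and 19 with DESeq2, 0 lower with total counts and with the replicate block, 174 and 515 over 2-fold, and 0 and 0 with 1 library left out. Low counts limit scaf and the noncoding RNAs. The causes of these shifts were not tested.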

Other observations

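Some groups not described above had few or no calls. Of 9 translation elongation and release genes, 0 were called by edgeR (3 had an unadjusted p under 0.05), and DESeq2 called 1 higher and 2 lower. The elongation factor gene eEF1delta had the lowest p, with 398 and 388 CPM in input and 604 and 825 CPM in polysomes (log2 ratio 0.86 ± 0.27, adjusted p = 0.0670, edgeR). Of 17 genes of upstream reading frames and stress translation, 3 were called lower, namely Sxl, Hsc70-3 and Atf6, a sensor of unfolded proteins in the endoplasmic reticulum, at 78.8 and 62.6 CPM in input and 16.0 and 32.3 CPM in polysomes (log2 ratio -1.57 ± 0.37, adjusted p = 0.0282). The median of that list was -0.09, and 6.14% of all genes were called lower.

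Of 14 tubulin and actin related genes, 4 yolk genes and 12 fat body genes, 0 were called by edgeR, and DESeq2 called 1, 0 and 0. The mitochondrial alanyl-tRNA synthetase gene AlaRS-m, at 62.0 and 63.1 CPM in input and 168 and 93.6 CPM in polysomes, did not pass either (adjusted p = 0.114). Obp99a, an odorant-binding protein gene, measured 80.9 and 58.6 CPM in input and 389 and 278 CPM in polysomes and did not pass (log2 ratio 2.26 ± 0.86, adjusted p = 0.118). The yolk protein receptor gene yl overlapped between fractions, at 455 and 250 CPM in input and 278 and 136 CPM in polysomes.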
